A study of Oryza sativa and Arabidopsis thaliana with 16 samples.

Results

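The comparison sets the 4 rice root arrays of the series against its 4 rice shoot arrays, 8 of its 16 arrays, which were chosen by the species and tissue given in the labels and by no measured value. All plants were wild-type rice (Oryza sativa), 13 days old. The 4 groups of 2 arrays were roots treated with nitrogen, roots given KCl, shoots treated with nitrogen and shoots given KCl. The nitrogen treatment was 20 mM KNO3 with 20 mM NH4NO3 for 2 h at the start of the light period, and the other plants received 20 mM KCl for the same 2 h. What all 4 groups share is a start of 3 days in the dark on agar, removal of the seed remains from the young seedling, and hydroponic growth at 27 °C and 180 μE per second and square metre of light in a medium holding ammonium succinate (0.5 mM) and sucrose (3 mM). The sucrose and ammonium in the medium, and the age at which roots and shoots are both still young, limit what the samples stand for. The labels call the arrays of a group biological replicates and state neither the cultivar nor how many plants went into a sample, so p-values measure the spread between these samples. The protocols in the labels speak of harvesting and extracting entire plants, whereas the titles and the tissue label say root or shoot, and the tissue was therefore checked against marker genes.

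Roots take up water and mineral ions and load them into the xylem. Rice is known for acquiring iron both as a free ion and as a complex with mugineic acid chelators, for taking up ammonium readily, and for depositing large amounts of silicon. The young shoot carries out photosynthesis, photorespiration and chlorophyll synthesis in leaf blades, and it builds a waxy cuticle. Many rice transporters, enzymes and regulators belong to gene families whose members are divided among organs, so a comparison of root with shoot shows which member each organ carries.

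Values are log2 expression values made by RMA, and a difference of 1 is 2-fold. Each difference is the mean of the root groups minus the mean of the shoot groups from limma, so a positive one is higher in root, and a probe set was called at a Benjamini-Hochberg adjusted p under 0.05 over all 57194 probe sets. Where 4 values are given for a tissue, the 2 nitrogen arrays come first and the 2 KCl arrays follow, replicate 1 before replicate 2. RMA gives no detection call, so values near 5, at the dim end of the arrays, can include genes that were not transcribed, and a fold change against such a value can be too small. Levels of different genes are not compared, because probe sets differ in how brightly they hybridise. In samples of entire organs, fewer cells of a type and less RNA per cell cannot be told apart.

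Root and shoot differed at 22882 probe sets (percent called 40.0), of which 13935 were higher in root (24.4%) and 8947 lower (15.6%). With a difference of at least 2-fold as a second condition, 6821 were called (11.9%), 3075 higher (5.38%) and 3746 lower (6.55%). At least 16-fold differences were more often towards the shoot, with 175 probe sets higher in root and 447 lower, but at 64-fold or more the order turned, with 28 higher and 19 lower. The first principal component, with 88.7% of the variance, separated the 2 tissues. Arrays of different tissues correlated at 0.888 to 0.915 across probe sets, arrays of 1 tissue under different treatments at 0.989 to 0.994, and arrays of 1 group at 0.993 to 0.994. The array medians were 6.09 to 6.16 in root and 6.12 to 6.15 in shoot. Control transcripts added in the laboratory differed between the tissues as well: bioB read 8.67 to 9.16 on root and 7.89 to 8.56 on shoot arrays, bioD 12.92 to 13.22 and 11.95 to 12.40, cre 14.31 to 14.47 and 13.72 to 13.93, while bioC was lower in root at 9.17 to 9.54, against 9.78 to 10.34 in shoot. These controls carry no plant RNA, and handling of the arrays and tissue cannot be told apart here. The difference between the 3′ and the 5′ probe sets of cyclophilin, a measure of RNA integrity and labelling, was 0.41 to 0.77 in root and -0.20 to 0.22 in shoot. For ubiquitin it was lower in root, at -0.74 to -0.65 against -0.56 to -0.43 in shoot. The tissues overlapped for actin, at 3.19 to 3.49 in root and 3.36 to 3.68 in shoot. They also overlapped for GAPDH, at 1.70 to 2.17 and 1.51 to 2.10, and for EF1a, at -2.83 to -2.48 and -2.84 to -2.60. The part of these differences in the results was not tested.

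The marker lists matched the tissue labels. The 8 genes of photosystems and light harvesting averaged 8.87, 9.63, 9.24 and 9.78 on the root arrays, against 12.73, 12.82, 12.73 and 12.77 on the shoot arrays. The 57 genes of iron and metal acquisition averaged 9.32, 9.58, 9.51 and 9.65 on the root arrays, against 8.33, 8.20, 8.36 and 8.24 on the shoot arrays. No array of one tissue reached the other in either list. Both sets of values varied between arrays of 1 tissue. Of the 15 named genes lowest in root, 12 had their lowest root value on the first nitrogen array, and of the 15 highest in root, 12 had their highest shoot value on a replicate 1 array. Whether tissue of the other organ was carried over was not tested. Seed storage and endosperm genes, the tissue cut away at day 3, averaged 5.74 to 5.91 in root and 5.58 to 5.63 in shoot. These means include RAG2, the 1 member of 15 called higher in root, at 4.47. Of the other members 2 were called lower and 12 were not called, and the median difference of the list was -0.069.

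**Figure D1:**
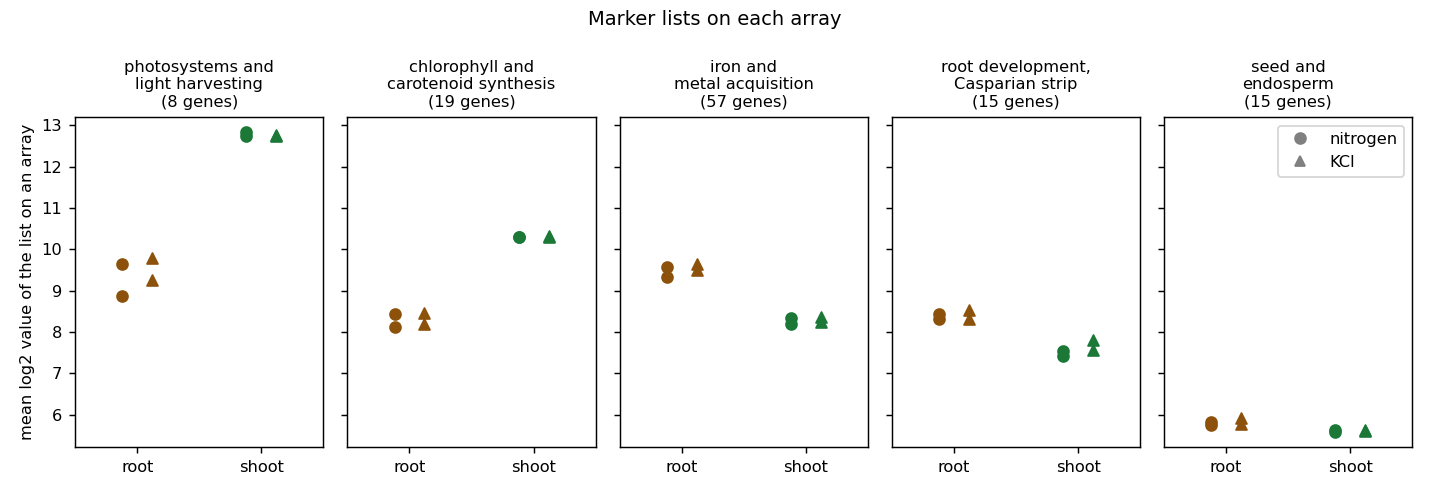
Mean log2 value of 5 marker lists on each array, root left of shoot, with circles for nitrogen and triangles for KCl; the number of genes is under each title. Photosystem genes sit at 8.87 to 9.78 on root arrays and 12.73 to 12.82 on shoot arrays. The means of root and shoot arrays do not overlap in any of the 5 lists. The seed list includes RAG2, its 1 member called higher in root, at 4.47.

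The genes with the largest positive differences among those with a name were led by iron chelator synthesis and membrane transport. NAS1 (LOC4332608), 1 of the nicotianamine synthases that make the precursor of mugineic acids, had values of 14.03, 14.26, 14.37 and 14.26 on the root arrays, against 7.68, 4.58, 8.16 and 6.06 on the shoot arrays. NAS2 (LOC4332607), which lies next to NAS1 in the RefSeq gene order, had values of 13.92, 14.12, 14.28 and 14.14 on the root arrays, against 7.996, 6.82, 8.71 and 6.86 on the shoot arrays. The root arrays of both genes were close together and the shoot arrays were spread, with the replicate 1 shoot arrays above the replicate 2 arrays in both treatments. The differences were 7.61 (SE 0.66, adjusted p = 2.77e-05) for NAS1 and 6.52 (SE 0.39, adjusted p = 2.69e-06) for NAS2. Leaving out 1 array at a time and the other settings moved NAS1 between 6.83 and 8.38.

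The vacuolar membrane aquaporin TIP2-1 (LOC4330207) had the same spread among shoots, with 13.74, 13.69, 13.81 and 13.64 on the root arrays, against 8.03, 5.92, 8.52 and 6.68 on the shoot arrays. Lsi2 (LOC4331328), the efflux transporter that passes silicon on towards the xylem, varied little in either organ and had 11.39, 11.75, 11.67 and 11.85 on the root arrays, against 5.58, 5.63, 5.47 and 5.32 on the shoot arrays. Its difference was 6.17 (SE 0.099, adjusted p = 1.05e-08), or 71.9-fold. The others of the 15 were the metallothionein MT4C at 5.75, the small heat shock protein HSP23.2 at 5.70, alcohol dehydrogenase Adh2, an enzyme of fermentation, at 5.52, the aluminium transporter Nrat1 at 5.43, the ammonium transporter AMT1-2 at 5.31, the ferrous iron transporter IRT1 at 5.01, the iron chelate transporter YSL15 at 5.01, the class III peroxidase PRX112 at 4.99, the plasma membrane aquaporin PIP2-4 at 4.82, the patatin-like phospholipase PLP2 at 4.74 and the germin-like protein GER2 at 4.74. PRX112 has a second, dimmer probe set that differed by 0.69.

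The 15 named genes with the largest negative differences were led by genes of photosynthesis and its surroundings. LFNR1 (LOC4339874), the leaf ferredoxin-NADP reductase at the end of photosynthetic electron transport, had values of 4.37, 6.07, 5.37 and 5.16 on the root arrays, against 11.46, 11.84, 11.66 and 11.72 on the shoot arrays, a difference of -6.43 (SE 0.31, adjusted p = 8.04e-07). GDCSH (LOC4349114), a subunit of the photorespiratory glycine decarboxylase, had 6.22, 6.94, 7.02 and 6.82 on the root arrays, against 12.58, 12.95, 12.71 and 12.79 on the shoot arrays, a difference of -6.01 (SE 0.16, adjusted p = 3.78e-08). Shoot arrays agreed within 0.4 for both genes, and the first root nitrogen array was the lowest of the root arrays in both. GDCSH also has a dimmer probe set that differed by -0.56.

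The rest of these 15 were the BURP-domain genes BURP16 at -5.82, BURP17 at -5.42 and BURP3 at -5.11, the cytochrome P450 CYP701A8 of diterpenoid synthesis at -5.81, a lipid transfer protein (LTP, LOC4351318) at -5.64, the cytosolic fructose-1,6-bisphosphatase CFBP1 of sucrose synthesis at -5.64, the chitinase Cht4 at -5.55, the glutaredoxin GRXC1 at -5.33, the chloroplast NADH dehydrogenase subunit ndhM at -5.26, the chloroplast thioredoxin cdsp32 at -5.18, the calcium-regulated kinase CIPK5 at -5.14, isocitrate lyase (ICL, of the glyoxylate cycle) at -5.12 and the small heat shock protein HSP16.9B at -5.04. Larger differences than any of these belonged to genes without a name. LOC4350217 was 271-fold higher in root, with 12.88, 12.83, 12.72 and 12.79 on the root arrays, against 4.60, 4.99, 4.73 and 4.57 on the shoot arrays, and LOC9268392 was 115-fold lower, with 4.55, 5.95, 6.04 and 5.81 on the root arrays, against 12.47, 12.62, 12.26 and 12.39 on the shoot arrays.

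**Figure D2:**
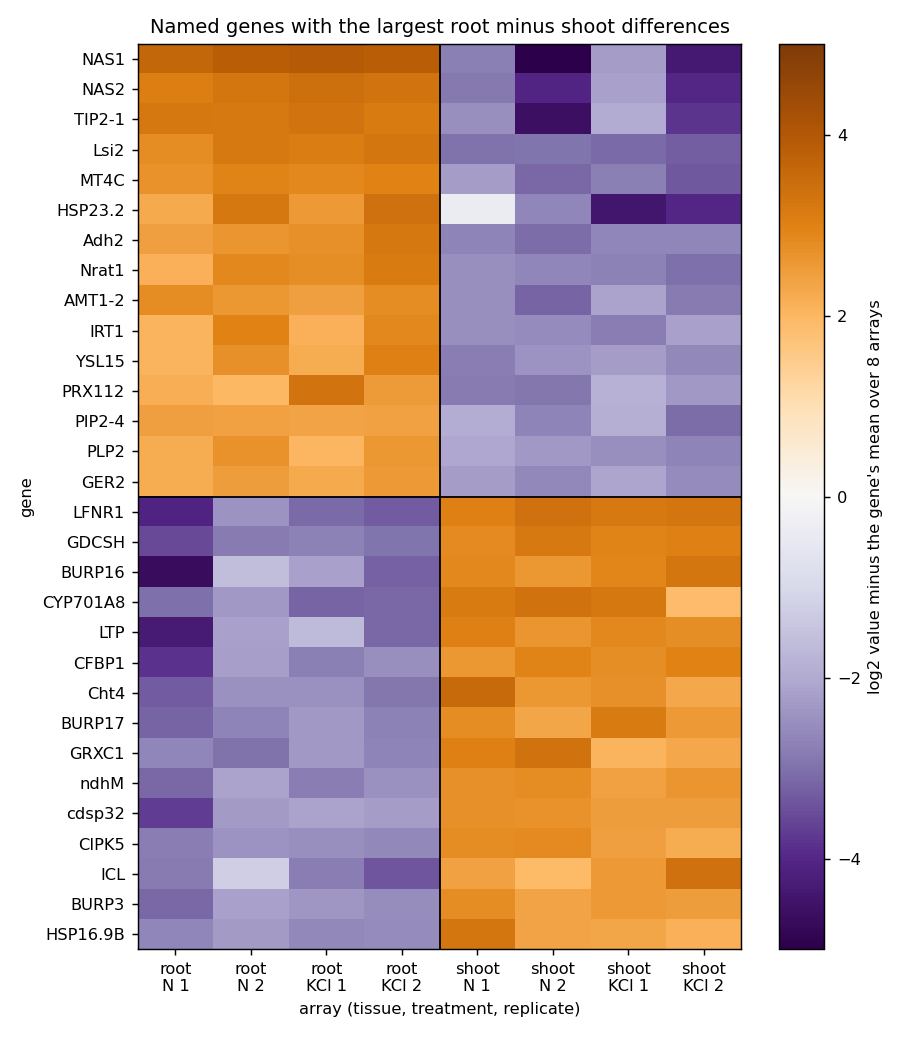
Values of the 30 named genes on the 8 arrays, root arrays left and shoot arrays right, as the log2 value minus each gene's own mean over the 8 arrays. The 15 upper genes are higher on all 4 root arrays and the 15 lower genes on all 4 shoot arrays; NAS1 on shoot arrays ranges between 4.58 and 8.16.

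Gene lists were read at 1 probe set a gene, the one of highest mean. On that basis 67.1% of the 17905 genes were called, 43.4% higher in root and 23.8% lower, and 11.3% and 12.7% when at least 2-fold was also required. The median difference over all genes was 0.18. A list's counts are read against these shares.

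Iron and metal genes were mostly higher in root. Of 57 measured members, 35 were higher, 13 lower and 9 not called, with a median difference of 0.53, and 22 were at least 2-fold higher. Beside NAS1, NAS2, IRT1 and YSL15, the root-high genes included NAAT1 (LOC9267778), the aminotransferase that follows nicotianamine synthase on the way to mugineic acids, at 3.15. IRT1 (LOC4333669) had values of 11.46, 12.41, 11.53 and 12.27 on the root arrays, against 6.92, 6.87, 6.62 and 7.23 on the shoot arrays. YSL15 (LOC9268232) had values of 11.37, 12.06, 11.54 and 12.37 on the root arrays, against 6.55, 6.94, 7.10 and 6.72 on the shoot arrays. In both genes the replicate 2 arrays of root were above the replicate 1 arrays, and the shoot arrays were all below 7.3. IRT1 differed by 5.01 (SE 0.24, adjusted p = 7.87e-07) and YSL15 by 5.01 (SE 0.22, adjusted p = 4.34e-07). IRT2, near IRT1 in the gene order with 1 coding gene between them, was at 2.58, and the manganese and cadmium transporter NRAMP5 and its neighbour Nramp1 were at 3.33 and 2.70. The mugineic acid exporter tom1 was at only 0.52.

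Zinc and copper transporters were divided. ZIP1, ZIP4, ZIP5, ZIP6 and ZIP7 were 0.92 to 3.15 higher in root, while ZIP3 and ZIP8 were lower at -0.46 and -1.08. For ZIP3 the tissues overlapped. It was not called within the nitrogen groups, without moderation or on leaving out some single arrays. The heavy metal pumps HMA5, HMA2 and HMA4 were higher in root at 3.52, 2.72 and 1.86. On the shoot side the list was led by MTP5, of the metal tolerance protein family, at -2.33 (SE 0.10, adjusted p = 4.22e-07), with 8.47, 8.86, 9.02 and 9.20 on the root arrays, against 11.30, 11.24, 11.09 and 11.22 on the shoot arrays. The vacuolar iron transporters went opposite ways, VIT2 at 1.03 and VIT1 at -1.15. Of the yellow stripe-like genes, 5 of 15 were higher and 4 lower, and YSL9 and its neighbour YSL16 were among the higher, at 3.68 and 1.76. YSL12 was called lower at -1.08, but another probe set for it was near 0 and not called. Among metallothioneins MT4C had values of 14.40, 14.66, 14.58 and 14.71 on the root arrays, against 9.47, 8.56, 8.95 and 8.37 on the shoot arrays, against which MT2C was lower in root at -1.06.

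Silicon transporters and aquaporins showed the same division by member. Of 26 measured members, 17 were higher, 5 lower and 4 not called, with a median difference of 0.42. Lsi1 (LOC4330713), the channel through which silicon enters the root, had values of 12.97, 12.98, 13.08 and 13.03 on the root arrays, against 8.50, 8.42, 8.53 and 8.16 on the shoot arrays, a difference of 4.61 (SE 0.092, adjusted p = 1.53e-08). Its relative Lsi6 (LOC4340558), which works in the leaf, had values of 8.80, 8.53, 9.47 and 9.15 on the root arrays, against 9.79, 10.05, 10.21 and 10.18 on the shoot arrays, a difference of -1.07 (SE 0.11, adjusted p = 6.73e-05). The silicon channels thus separated the organs in opposite directions, with no overlap between tissues in either.

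Among the 10 plasma membrane aquaporins 8 were higher in root and 2 lower. PIP2-4 (LOC4343119) had values of 13.93, 13.91, 13.86 and 13.90 on the root arrays, against 9.54, 8.80, 9.58 and 8.41 on the shoot arrays. PIP2-7 (LOC4347729) had values of 4.55, 5.38, 5.30 and 5.08 on the root arrays, against 9.86, 9.96, 9.98 and 9.44 on the shoot arrays. The differences were 4.82 (SE 0.25, adjusted p = 1.16e-06) for PIP2-4 and -4.73 (SE 0.19, adjusted p = 2.65e-07) for PIP2-7. PIP2-5, next to PIP2-4 in the gene order, was also far higher in root at 3.87, and PIP2-1, the next gene, was at 0.43. NIP1-1, of the same wider family as the silicon channels, was lower in root at -2.45.

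Nitrogen uptake and assimilation did not lean to either organ as a list. Of 24 measured members, 7 were higher, 6 lower and 11 not called, with a median difference of 0.12. AMT1-2 (LOC4330008) had values of 10.96, 10.74, 10.59 and 10.93 on the root arrays, against 5.69, 4.98, 6.01 and 5.31 on the shoot arrays, a difference of 5.31 (SE 0.20, adjusted p = 1.85e-07), whereas AMT1-1 of the same subfamily was slightly lower in root at -0.68. Glutamine synthetase, which binds ammonium into glutamine, was divided between its cytosolic and its plastid form. GLN1-2 (LOC4332108, cytosolic) had values of 14.11, 14.23, 13.96 and 14.11 on the root arrays, against 11.002, 11.02, 10.88 and 10.74 on the shoot arrays. GLN2 (LOC4337272, plastid) had values of 11.13, 11.52, 10.38 and 10.81 on the root arrays, against 13.64, 13.70, 13.44 and 13.47 on the shoot arrays. The differences were 3.19 (SE 0.075, adjusted p = 2.46e-08) and -2.60 (SE 0.12, adjusted p = 6.01e-07), and the tissues did not overlap for either. The ferredoxin-dependent glutamate synthase Fd-GOGAT was also lower in root at -2.17. The nitrate reductase NIA1 was lower at -1.87, but its dimmer probe set was at 0.23. The nitrate transporters NRT2.2 and NRT2.3 were higher at 1.35 and 1.08, and their partner protein gene NAR2.2 was lower at -1.11. Within the nitrogen groups alone NRT2.3 was at 0.59 and not called.

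For phosphate, 9 of 19 measured genes were higher, 2 lower and 8 not called (median 0.21). PHO1-2, which exports phosphate to the xylem, was highest at 4.68, though its other probe sets were at 0.18 and -0.042 and not called. The phosphate transporters PT1 (LOC4331637), PHT1-4 and PHT1-8 were at 2.68, 1.997 and 1.97, and 5 of the 8 genes of this family were not called. A dimmer probe set for PHT1-8 was at 0.37.

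Of 40 genes of potassium, sodium and other ion transport, 22 were higher in root and 7 lower (median 0.33). HKT1;5 (LOC4327757), a sodium transporter that withdraws sodium from the xylem, had values of 10.09, 10.61, 10.51 and 10.66 on the root arrays, against 6.997, 6.85, 6.83 and 7.08 on the shoot arrays, a difference of 3.53 (SE 0.12, adjusted p = 1.37e-07). The potassium channel AKT1 was at 1.82, and the aluminium tolerance transporter subunits STAR1 and STAR2, which form 1 complex, were at 1.86 and 1.83, though a dimmer probe set for STAR2 was at -0.13 and not called. ART1, the regulator of aluminium tolerance genes, was at 2.01, but its dimmer probe set was at -0.062. Among 22 HAK potassium transporters, 11 were higher in root, led by HAK9 at 1.99, and 5 were lower, led by HAK17 at -3.87 and HAK27 at -3.35. The last gene and its neighbour HAK16, at -1.13, were both lower in root. HAK5, counted among the higher at 0.58, has a dimmer probe set at -4.11.

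All 8 genes of photosystems and light harvesting were lower in root, with a median of -3.47. ndhM had the largest difference, and the light-harvesting chlorophyll proteins LHCP and CAB2R and the photosystem I subunit PSAH were at -4.29, -3.75 and -4.03. Of 8 genes of the Calvin cycle and photorespiration, 6 were lower and 2 higher. The small subunit of Rubisco RBCS (LOC4351966) was at -4.49, although a dimmer probe set for it was at -0.49 and not called. Glycolate oxidase, an enzyme of photorespiration, was divided, with GLO5 at -3.66 and GLO3 and GLO4 higher in root at 1.07 and 0.90. GLO3 (LOC4337048) had values of 11.86, 11.98, 11.78 and 11.61 on the root arrays, against 10.84, 10.49, 10.92 and 10.73 on the shoot arrays.

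Chlorophyll and carotenoid genes were lower in root in 18 of 19 cases, with a median of -1.99, and 17 of them at least 2-fold. CHLH, a magnesium chelatase subunit, was at -3.73, with a dimmer probe set at 0.079. The protochlorophyllide reductases PORB and PORA were at -3.61 and -2.64. PSY3, a phytoene synthase, was the member not called, at -0.18, whereas PSY1 and PSY2 were at -2.24 and -2.27, with other probe sets for PSY1 at -2.53 and -0.20. PSY3 had values of 7.85, 7.87, 7.57 and 6.98 on the root arrays, against 7.996, 7.75, 7.64 and 7.61 on the shoot arrays. Genes of chlorophyll breakdown (SGR, NYC1, NOL, RCCR1) were also lower in root, at -1.99 to -0.73.

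Of 6 genes of wax, cutin and lipid transfer, 5 were lower in root (median -2.70). LTP had values of 5.62, 7.73, 8.28 and 6.77 on the root arrays, against 12.93, 12.56, 12.78 and 12.69 on the shoot arrays, and LTP2-B, its neighbour in the gene order, was at -3.44.

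Sugar genes divided. Of 58 measured members, 18 were higher, 20 lower and 20 not called, with a median difference of 0.051. Of 12 SWEET sugar transporters all were called, 8 lower and 4 higher. SWEET1B (LOC4338851) had values of 6.17, 6.51, 6.59 and 6.36 on the root arrays, against 10.14, 9.99, 9.85 and 10.08 on the shoot arrays, a difference of -3.61 (SE 0.11, adjusted p = 6.34e-08). SWEET14 (LOC4350572) had values of 11.17, 11.60, 11.28 and 10.89 on the root arrays, against 8.94, 9.21, 8.79 and 8.73 on the shoot arrays, a difference of 2.32 (SE 0.13, adjusted p = 1.75e-06). AGPS2, a subunit of the enzyme that makes ADP-glucose for starch, was lower in root at -3.31, and the cell wall invertase CIN2 and the trehalose-6-phosphate phosphatase TPP1 were higher at 2.51 and 2.28. CIN3, next to CIN2, was not called at -0.15.

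**Figure D3:**
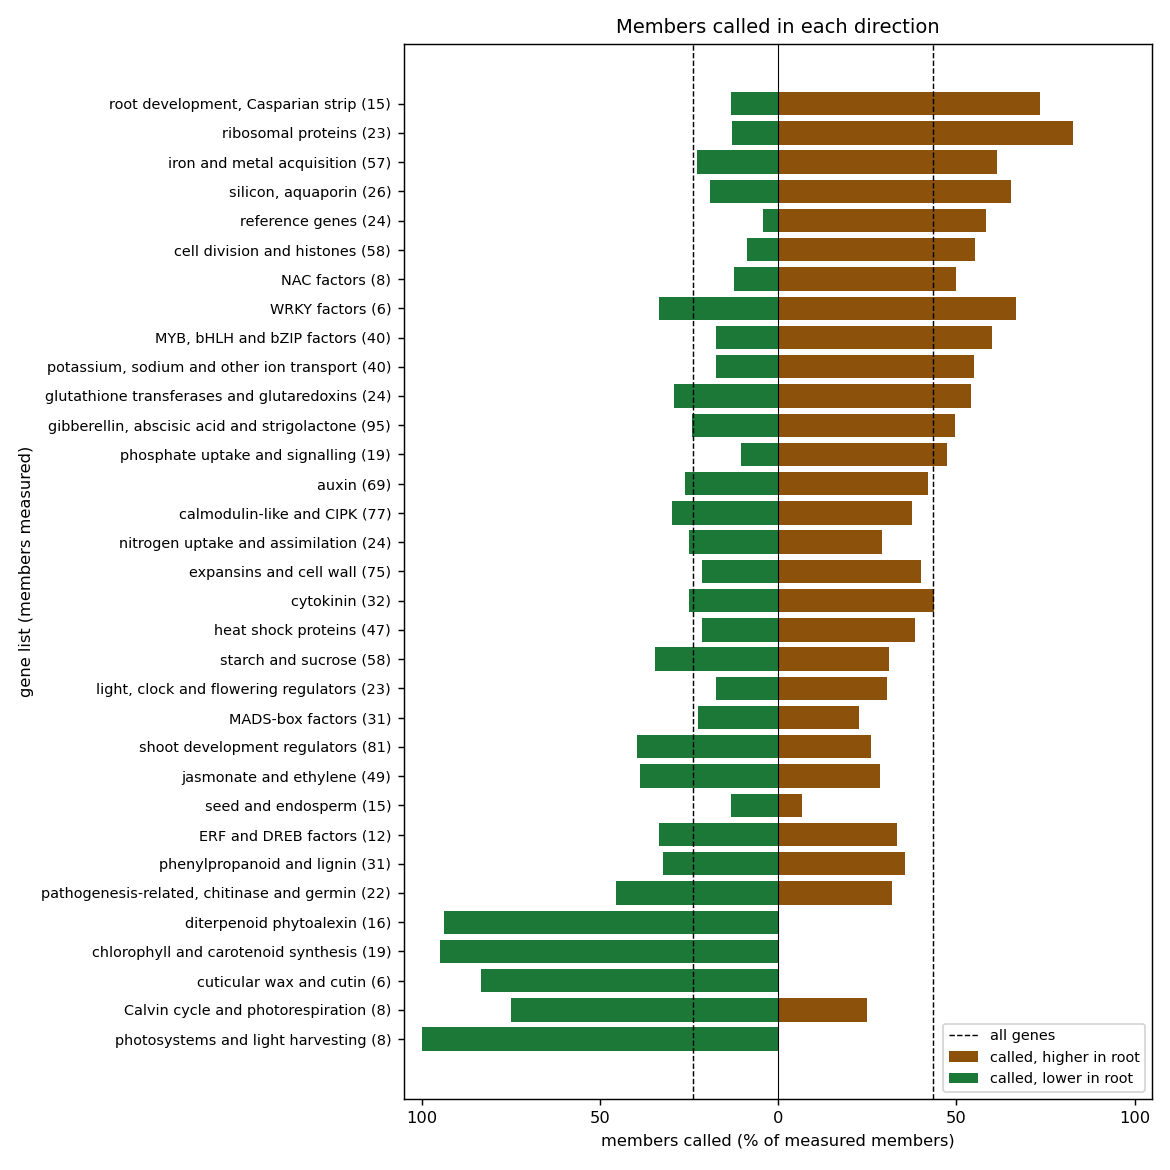
Percent of measured members of each list called higher in root (brown, right) or lower in root (green, left), with lists ordered by median difference and the number measured in brackets. Dashed lines mark the shares over all genes, 43.4% higher and 23.8% lower; photosystem, chlorophyll and diterpenoid lists lie wholly on the lower side.

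Regulators of shoot development were lower in root in 32 of 81 cases and higher in 21. Of 6 YABBY genes, regulators in lateral organs, 4 were lower. YAB2 (LOC4333584) had values of 4.42, 4.43, 4.47 and 5.05 on the root arrays, against 8.69, 8.87, 9.09 and 8.86 on the shoot arrays, a difference of -4.29 (SE 0.13, adjusted p = 6.99e-08). YAB1 was at -4.69, with a dimmer probe set at 0.044, and YAB7 was higher in root at 0.43. The Roc genes, homeodomain regulators of the epidermis, were lower in 5 of 8 cases, led by Roc2 at -3.76, and none was higher. PCF genes of the TCP family were lower in 6 of 7, led by PCF7 at -2.83. Of the homeodomain-leucine zipper (HOX) genes 12 of 25 were higher in root, led by HOX12 at 3.12 and hox29 at 3.04. Another 7 were lower, and this split was near that of all genes. LG1, the liguleless SBP-box gene, was at -1.65, while LG2 (LOC4325063) was higher in root at 3.38, with a dimmer probe set at 4.58. Of 9 KNOX homeobox genes, 2 were higher, led by HOS9 at 2.51, and 4 lower. Lowest of the called was the meristem gene OSH1 at -1.13, with a dimmer probe set at -3.27. Without moderation neither HOS9 nor OSH1 was called. HOS9 was also not called within the KCl groups, nor OSH1 within the nitrogen groups.

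Of 23 genes of light, clock and flowering, 12 were not called. The clock gene GI was higher in root at 1.94, with 9.19, 9.62, 8.59 and 9.13 on the root arrays, against 7.59, 7.27, 6.85 and 7.06 on the shoot arrays, and the photoreceptor gene PHYA was at 1.81. The light-regulated gene LIR1 (LOC4326442) was lower at -3.74, and phyC at -1.16.

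Root development genes leaned to root. Of 15 measured members, 11 were higher, 2 lower and 2 not called, with a median difference of 0.69. SHR1, a regulator of root ground tissue, was at 1.79, WOX11, which promotes crown roots, at 1.13, QHB, the homeobox gene of the quiescent centre, at 0.48 and OsCASP1, of the Casparian strip, at 0.67. Dimmer probe sets for OsCASP1 were at 4.09 and 0.91. SCR1 (LOC4349638), a partner of SHR in patterning, was lower in root, with 5.62, 5.85, 5.57 and 5.58 on the root arrays, against 6.83, 6.42, 6.74 and 6.62 on the shoot arrays, a difference of -1.0 (SE 0.10, adjusted p = 9.14e-05). GLR3.1, a glutamate receptor gene, was higher at 1.25, but its dimmer probe set was called in the opposite direction at -1.59.

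MADS-box genes were uncalled in 17 of 31 cases. MADS26 (LOC4344493) had values of 10.34, 10.62, 10.61 and 10.52 on the root arrays, against 6.66, 5.94, 6.61 and 5.84 on the shoot arrays, a difference of 4.26 (SE 0.20, adjusted p = 6.57e-07), and MADS27 was close to it at 4.14. MADS22 was lower in root at -3.48. Among bZIP factors of the TGA group, 9 of 10 were higher in root and none lower, with a median of 2.04. TGAL4 (LOC4349800) had values of 11.11, 11.02, 10.76 and 10.98 on the root arrays, against 6.52, 6.38, 6.54 and 6.32 on the shoot arrays, and TGAL5, TGAL7 and TGAL6 were at 3.63, 3.60 and 2.86. TGA2.3 was the 1 not called, at -0.029. In the whole list of MYB, bHLH and bZIP factors 24 of 40 were higher and 7 lower, among them bHLH080 at -2.93.

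Auxin genes were called in 47 of 69 cases, 29 higher and 18 lower in root (median 0.17), a split near that of all genes. The Aux/IAA repressor genes IAA12 and IAA20 were at 3.36 and 3.15, while IAA8 was at -2.46 with a dimmer probe set at 0.049. IAA12 (LOC4333512) had values of 9.21, 8.99, 9.61 and 9.56 on the root arrays, against 5.79, 5.61, 6.66 and 5.87 on the shoot arrays. The auxin efflux carriers PIN9 and PIN2 were higher in root at 2.36 and 2.31, and PIN3A was lower at -1.22, but its dimmer probe set was called higher at 0.60. Cytokinin genes showed 14 higher and 8 lower of 32, also near the split of all genes. Response regulator ORR4 was at 1.74, and LOG (LOC4324445), which activates cytokinin, was at -2.20 with a dimmer probe set at 0.028.

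Of 95 genes of gibberellin, abscisic acid and strigolactone, 47 were higher and 23 lower (median 0.26), a split near that of all genes. The dehydrin gene RAB16D (LOC4350451) had values of 13.09, 13.22, 12.88 and 12.79 on the root arrays, against 8.75, 8.30, 8.17 and 8.25 on the shoot arrays, a difference of 4.63 (SE 0.11, adjusted p = 2.31e-08). Its neighbours RAB16C, RAB16B and RAB21 were not called, at 0.17, -0.58 and -1.71. The abscisic acid kinase genes SAPK were higher in 7 of 10 cases, led by SAPK9 at 2.02, and SAPK10 was lower at -0.69. The gibberellin gene GA20OX3 was higher at 2.39, while ks1 and CPS1, which start gibberellin synthesis, were lower at -1.60 and -0.90.

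Of 49 genes of jasmonate and ethylene, 14 were higher in root and 19 lower (median -0.048). AOS4, an allene oxide synthase gene, and the oxophytodienoate reductase genes OPR5, OPR10 and OPR1, which lie together in the gene order, were higher in root at 4.45, 4.36, 2.82 and 2.11. OPR4, next to OPR5, was not called at 0.11. The lipoxygenase genes LOX8 and LOX9, also neighbours, were lower at -4.54 and -4.42, and for LOX9 a dimmer probe set was at -0.084 and not called. LOX8 (LOC4345993) had values of 5.25, 5.42, 5.83 and 5.78 on the root arrays, against 9.99, 10.70, 9.98 and 9.78 on the shoot arrays. Of 13 JAZ repressor genes, 9 were lower in root, led by JAZ12 at -1.32, 4 were not called and none was higher. ACO1, which makes ethylene, was lower at -3.58.

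The diterpenoid phytoalexin genes, which make antimicrobial compounds of rice, were lower in root in 15 of 16 cases and higher in none, with a median of -1.89. CYP701A8 had values of 4.69, 5.39, 4.53 and 4.57 on the root arrays, against 10.86, 11.04, 10.92 and 9.61 on the shoot arrays. CPS2 (LOC9266189), which starts the phytocassane branch, had 4.29, 4.60, 3.97 and 3.92 on the root arrays, against 9.31, 9.08, 9.22 and 7.76 on the shoot arrays, a difference of -4.65 (SE 0.27, adjusted p = 2.31e-06). Its neighbour CYP71Z7 was at -3.98, KSL7 at -1.98 and CYP71Z6 at -0.67, and KSL5 of the same stretch was not called at 0.17. A dimmer probe set for KSL7 was at -0.15 and not called. The momilactone genes CPS4, CYP99A3, OsMAS, KSL4 and CYP99A2, which also lie together, were all lower, at -2.93, -1.79, -1.70, -2.32 and -2.54. KSL4 (LOC4335094) had values of 4.38, 4.32, 4.44 and 4.58 on the root arrays, against 6.77, 7.38, 7.21 and 5.64 on the shoot arrays. The list averaged 6.20 to 6.35 on root arrays and 7.86 to 8.73 on shoot arrays, a wider range among shoots than among roots.

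Phenylpropanoid genes were higher in 11 and lower in 10 of 31 cases. CHS and CHI, the first enzymes of flavonoid synthesis, were lower in root at -4.34 and -1.71. Dimmer probe sets for CHS were at -0.97, -0.93, -0.46 and -0.29, and the last of them was not called. The coumarate ligase genes went opposite ways, 4CL1 at 1.21 and 4CL2 at -3.45. The laccase genes LAC19 and LAC20, adjacent in the gene order, were at 0.66 and -3.99. LAC20 (LOC4351006) had values of 5.49, 4.98, 5.06 and 4.89 on the root arrays, against 9.22, 9.19, 9.06 and 8.92 on the shoot arrays.

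Members of defence and redox families stood far apart in both directions. Of 8 germin-like GER genes, 5 were higher in root and 2 lower. GER2 (LOC4344839) had values of 13.50, 13.77, 13.54 and 13.84 on the root arrays, against 9.06, 8.69, 9.22 and 8.71 on the shoot arrays. GER8 (LOC4325743) had values of 5.37, 5.50, 5.88 and 5.33 on the root arrays, against 10.31, 10.21, 10.43 and 10.37 on the shoot arrays, a difference of -4.81 (SE 0.12, adjusted p = 2.58e-08), and its dimmer probe sets were at -1.62 and -0.84. The neighbours GER3, GER2 and GER1 were all higher, at 2.05, 4.74 and 4.08, and GER5 was lower at -4.47. Chitinases were lower in 7 of 10 cases, with Cht10 alone higher at 2.02. PBZ1, a pathogenesis-related gene, was at -4.60. Glutaredoxins were higher in 9 and lower in 6 of 18 cases, from GRXS2 at 3.19 to GRXC1 at -5.33. GRXC1 (LOC4325734) had values of 6.07, 5.71, 6.37 and 6.03 on the root arrays, against 11.72, 12.05, 10.75 and 10.98 on the shoot arrays. Among CIPK kinases 8 of 24 were higher and 10 lower, from CIPK10 at 3.03 to CIPK5 at -5.14. Dimmer probe sets for CIPK10 were at up to 5.53.

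Small heat shock proteins were higher in 4 and lower in 7 of 19 cases. HSP16.9B (LOC4325698) had values of 4.56, 4.89, 4.59 and 4.63 on the root arrays, against 10.44, 9.55, 9.52 and 9.31 on the shoot arrays, and HSP16.9A and HSP17.9B, nearby in the gene order, were also lower at -1.73 and -1.49. HSP23.2 (LOC4335956) had values of 11.12, 12.08, 11.44 and 12.26 on the root arrays, against 8.50, 6.24, 4.48 and 4.88 on the shoot arrays. On shoot arrays it was higher after nitrogen than after KCl, and its difference was 4.23 within the nitrogen groups and 7.17 within the KCl groups. The regulator HSFA2D was higher at 1.71, but its second probe set was called lower at -1.87.

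Expansin and cell wall genes were higher in 30 and lower in 16 of 75 cases, a split near that of all genes. The endoglucanase GLU14 was at 4.48, GLU5 at 4.11, and the expansins EXP8 and EXP3 at 4.15 and 3.91. EXP8 (LOC4327217) had values of 9.23, 9.03, 9.34 and 9.04 on the root arrays, against 4.87, 5.46, 5.11 and 4.60 on the shoot arrays. EXP2 was lower in root at -2.19. The beta-expansins EXPB6 and EXPB2, neighbours, were higher at 2.17 and 2.29, while EXPB3, next to EXPB2, was lower at -1.06. Of 9 cellulose synthase genes 7 were not called. Both class III peroxidases with a name were higher, PRX112 and PRX74 at 4.99 and 3.19, and so were both non-symbiotic hemoglobins, NSHB1 at 2.89 and NSHB2 at 1.25. For NSHB2 the tissues overlapped, and its nitrogen minus KCl difference was 3.01 in root and 2.43 in shoot.

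**Figure D4:**
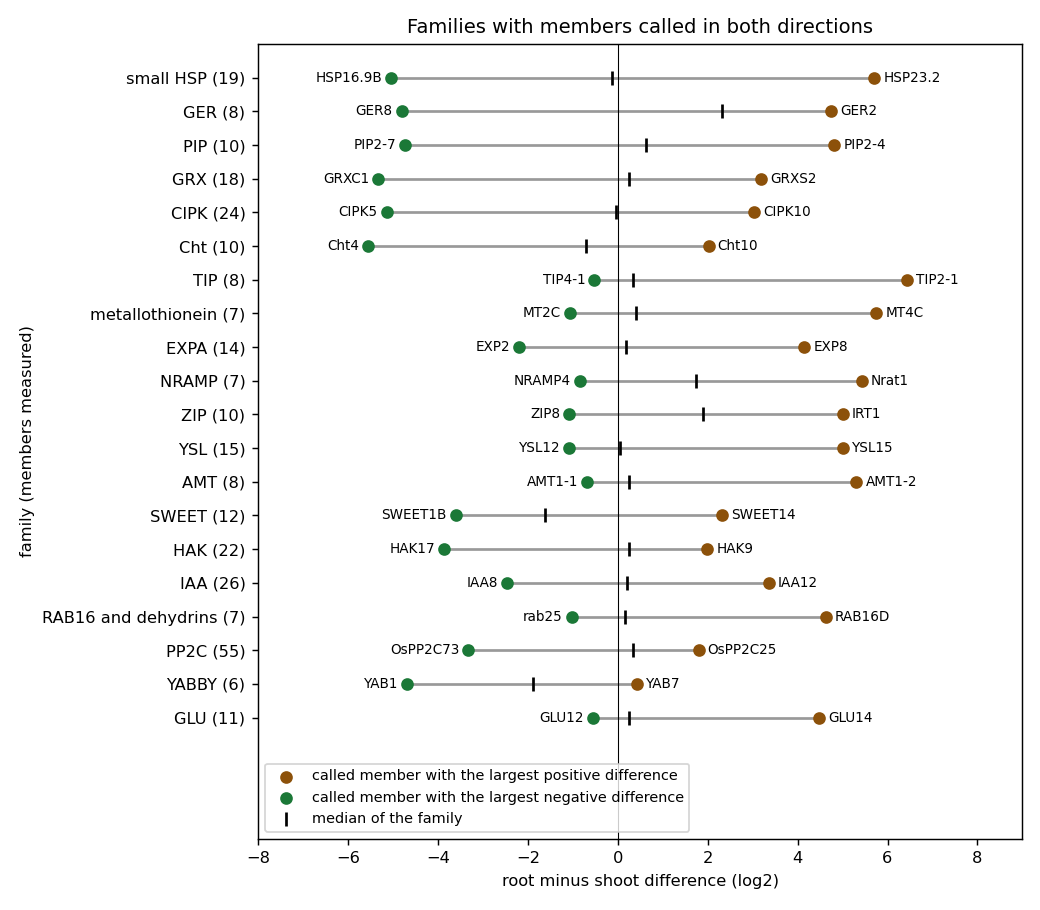
Root minus shoot difference (log2) of the called members with the largest positive (brown) and negative (green) difference in the 20 families with the widest range, with the family median as a black bar and the number measured in brackets. Small heat shock proteins, germin-like proteins and plasma membrane aquaporins each run over both sides of 0.

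Most ribosomal protein genes were modestly higher in root. Of 23 measured members, 19 were higher, 3 lower and 1 not called, with a median difference of 0.69. The 3 that were lower were RPL18 (LOC4334651) at -3.04, RPL27 (LOC4327257) at -2.92 and rpl5 (LOC4331459) at -2.90. RefSeq lists the first and second under the synonyms CL18 and CL27, names of chloroplast ribosomal proteins. RPL18 had values of 8.66, 8.98, 9.03 and 9.54 on the root arrays, against 12.03, 12.20, 12.07 and 12.07 on the shoot arrays. The other members ranged between 0.43 and 1.19.

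Of 58 cell division genes, 32 were higher and 5 lower (median 0.40), and the 4 root arrays lay above the 4 shoot arrays in 11 of the 58, against 40.1% of all genes. MCM5 and MCM4, of the replication helicase, were higher at 1.11 and 1.10 and were not called within the KCl groups alone. KRP6, an inhibitor of cyclin-dependent kinases, was lower at -2.53 (SE 0.15, adjusted p = 2.33e-06), and its dimmer probe set was at -0.23. Of 24 genes often used as references, 14 were higher in root and 1 lower, with a median of 0.40. ACT1 was at 0.38 and UBQ5 at 0.78, and the largest difference in the list was that of GAPC3 at 2.21, with other probe sets at 2.64 and 0.29.

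Of 15 seed and endosperm genes, 12 were not called. RAG2 (LOC4342723), a seed allergenic protein of the alpha-amylase inhibitor family, was the 1 that was higher, with 9.85, 9.83, 9.91 and 10.56 on the root arrays, against 5.90, 5.44, 5.70 and 5.24 on the shoot arrays, a difference of 4.47 (SE 0.17, adjusted p = 2.21e-07). The 3 dimmer probe sets for RAG2 were also called higher, at 2.79, 2.29 and 0.26. Its neighbour RAG1 was at 0.088 and not called.

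Root and shoot differed at 17582 probe sets within the nitrogen groups alone (30.7%) and at 16364 within the KCl groups (28.6%). At the 6821 probe sets called with at least 2-fold over both treatments, the median absolute difference between tissues was 1.72, and the median absolute difference between its values after nitrogen and after KCl was 0.28. In limma the interaction of tissue and nitrogen was called for 0 of 57194 probe sets (0.00%), with 3444 at an unadjusted p under 0.05 and a smallest adjusted p of 0.28. With 2 arrays a group the precision of the interaction is limited. For comparison, nitrogen against KCl was called for 140 probe sets in root (0.245%) and 25 in shoot (0.0437%).

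The 3 named genes with the largest interactions were RAB21, HSP23.2 and TPP1. RAB21 (LOC4350454) had values of 7.85, 10.27, 6.80 and 7.54 on the root arrays, against 10.34, 8.16, 10.08 and 10.71 on the shoot arrays, and the tissues overlapped. TPP1 (LOC4330221) had values of 9.62, 10.24, 7.61 and 7.71 on the root arrays, against 6.27, 6.54, 6.86 and 6.39 on the shoot arrays, so that its root minus shoot difference was 3.52 after nitrogen and 1.04 after KCl. The interaction had an adjusted p of 0.786 for RAB21, 0.705 for HSP23.2 and 0.28 for TPP1 in limma, and none was called.

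**Figure D5:**
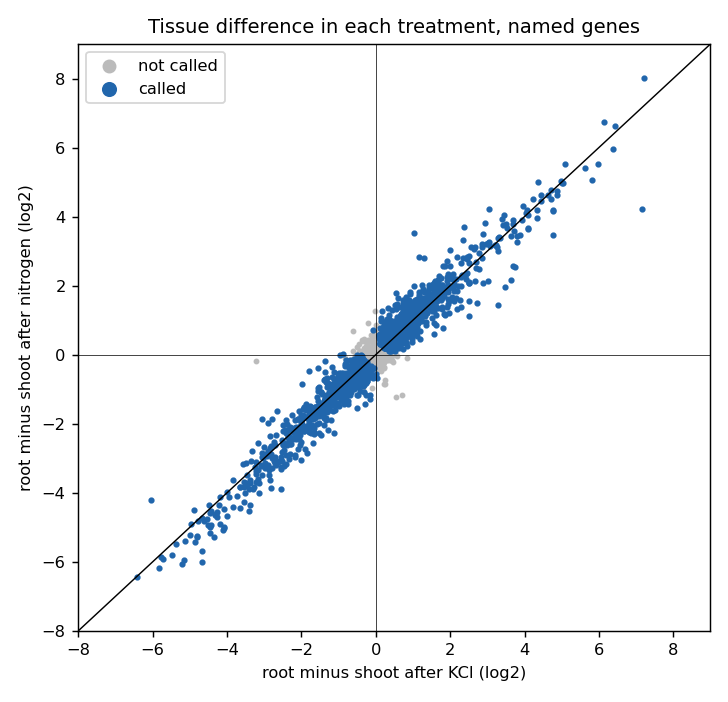
Root minus shoot difference (log2) after nitrogen (vertical) against that after KCl (horizontal) for the named genes, blue where called and grey where not; the diagonal marks equal differences. NAS1 lies at 8.01 after nitrogen and 7.20 after KCl, and HSP23.2 stands off the diagonal at 4.23 and 7.17.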

How the data were processed

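The authors deposited log2 expression values per probe set of the rice arrays, made with RMA (robust multi-array average) per the submitters' processing notes; its version, and whether all arrays were run together, is not stated in them. RMA gives arrays a common distribution of probe values, so a shift of most transcripts in one direction would not be seen. The values were used without further scaling. Of 57381 probe sets, 187 controls were left out. The platform annotation named the probe sets: 22436 had 1 gene, 95 several (not named) and 34663 none in that table. All 17905 gene numbers matched a table of RefSeq genes (assembly ASM3414082v1), which gave names and gene order, and 2470 had a name other than a locus number.

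A linear model with 4 group means over 8 arrays was fitted in limma 3.58.1 (R 4.3.3), with eBayes moderation (4 residual and 4.23 prior degrees of freedom). P-values are two-sided and Benjamini-Hochberg adjusted. The number of arrays limits the precision. In a simulation of this comparison over 57194 probe sets, 80 of 100 changes of 1 and 99 of 100 changes of 2 on the log2 scale were called, with 8 unchanged probe sets called. The simulation changed 200 probe sets, far fewer than the 22882 called in the data. The Benjamini-Hochberg adjustment depends on that share, so these recoveries do not carry over to the data. Genes named are the 15 largest differences in each direction among called, named genes whose 4 root and 4 shoot arrays do not overlap, up to 4 called members per direction of each of 35 lists with the members needed to account for those not called, the extremes of families and the 3 largest interactions; neighbours of these, members of a group described as a whole, and the genes without a name were added after their values were seen. The comparison, lists and rules were chosen with earlier results of these data known. List members were matched by symbol, and 98 wrong matches were removed by hand. Alternatives were an additive model, single treatments, other scalings, filters on dim probe sets, other moderation, array weights, a replicate block, leaving out each array and, for genes, the probe set of lowest mean. The deposited file of the other species was not used here.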

Additional observations from a re-analysis of the deposited data

Results flagged for a closer look

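Among 60 sets of 4 arrays (30 named genes in 2 tissues), 3 held an array far from the others by Dixon's criterion. For independent sets of replicates chance gives about 1 set in 20. Here a set joins 2 nitrogen and 2 KCl arrays, and the genes share arrays, so that rate need not hold. For Adh2 in shoots the second nitrogen array read 5.97, below the other 3 at 6.38 to 6.43. For CYP701A8 in shoots the second KCl array read 9.61, below the others at 10.86 to 11.04. For cdsp32 in roots the first nitrogen array read 6.19, below the others at 7.62 to 7.76. The first root nitrogen array was the lowest root array for 12 of the 15 named genes lowest in root, and the part of that array in the results was not tested beyond leaving it out.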

How the results depend on the processing

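The count of 22882 probe sets called kept within 1.5 times under every alternative run, from 16364 within the KCl groups to 24244 with the replicate block, and the count with at least 2-fold from 5069 to 7239 against 6821. The interaction stayed at 0 calls under the scalings, filters, moderations, array weights and block, and leaving out 1 array gave 0 to 1; without the first or the second root nitrogen array 1 probe set was called. The replicate block ended no call of a named gene and added that of RAB21 (-1.71), which 8 other alternatives also called. Samples of the same replicate number correlated at 0.028 to 0.35 in their deviations from group means, above 0 in all 6 pairs of groups but not above 0.1 in every one. In the values themselves an array did not always correlate best with its own number. Root KCl replicate 1 correlated at 0.99081 with root nitrogen replicate 2 and at 0.99051 with root nitrogen replicate 1. The correlation of deviations is a hint from the data and not the design, and the numbers were not taken as pairing. Other scalings put 60.5% to 62.3% of called probe sets higher in root, against 60.9%, and moved the median of all probe sets between 0.037 and 0.046. Without probe sets that may match several transcripts, an alternative chosen after seeing the data, 17098 of 45818 were called. Of 314 named or listed leading genes, 245 kept direction and call under every alternative and 69 did not. Of these, 27 changed with the probe set of lowest mean, 22 within the KCl groups, 23 within the nitrogen groups and 20 without moderation. Among called genes of the 314, only the probe set of lowest mean turned a sign: GLO1 0.47, CHLH 0.079, YAB1 0.044, TIP4-1 0.016, NIA1 0.23, ART1 -0.062, GLR3.1 -1.59, CSLF6 0.23, CAD8C 0.13, LOG 0.028, IAA8 0.049, HSFA2D -1.87, PIN3A 0.60 and STAR2 -0.13. Among genes not called, OPR4 turned within the nitrogen groups at -0.0081, and leaving out 1 array turned RAB16C (-0.081 to 0.41) and TGA2.3 (-0.087 to 0.030). Of 73 of these genes with several probe sets, 15 had another of opposite sign and 22 that were called had another not called. The cause was not tested. Dim probe sets carry no detection call and limit these values.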

Other observations

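Of 3444 genes with several probe sets, 944 had 1 called with at least 2-fold, and 6 of these had probe sets called that far in both directions. The widest was LOC4349165, a gene without a name, for which 1 probe set differed by 5.74 and another by -3.82. HSFA2D and GLR3.1 are the 2 of the 6 that have a name.

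Of 48 families counted, 38 had at least 1 member called in each direction, which is a description beside the 67.1% of all genes called.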
